A study of Mus musculus with 2 samples.

Results

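Cytosolic ribosomal protein genes encode the proteins that, together with ribosomal RNA, make up the small and the large subunit of the ribosome. Their members were taken by name from the features of 2 single-cell libraries: symbols starting with *Rpl* or *Rps* and a digit, together with *Rplp0*, *Rplp1*, *Rplp2* and *Rpsa*, without pseudogene names (ending in -ps) and without the *Rps6k* kinases, and with at least 100 unique molecular identifiers (UMIs, 1 per captured transcript) in the AngII library. This gave 86 of 55386 features, out of 93 matching names. The smallest member, *Rpl6l*, had 115 UMIs over all deposited AngII barcodes, and the largest gene left out, *Rps3a2*, had 59.

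The libraries hold CD45+ cells that the labels assign to the adventitia, sorted from whole aortas, of *Rank*Cre*Rosa26*eYFP mice of about 16 weeks, in which Cre from the *Rank* locus switches on eYFP and labels the progeny of yolk sac progenitors. All animals carried these alleles. The steady state library pooled 3 untreated animals, and the AngII library pooled 2 animals given angiotensin II at 1.8 µg/kg/min for 10 days, a model of arterial inflammation. With 1 library per condition no test between conditions or classes was possible, so values are given with exact 95% intervals that cover counting error only, and AngII, animals and library cannot be told apart.

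Ribosomal protein genes are expressed in every cell and are produced in near equal amounts of protein, since a subunit needs 1 copy of most of them. Most of their transcripts start with a run of pyrimidines, the 5′ terminal oligopyrimidine (TOP) tract, through which mTORC1 and the RNA-binding protein LARP1 set their translation and stability together. Resting lymphocytes are small cells with little other mRNA, neutrophils stop making ribosomes as they mature, and some members have paralogs whose use differs between tissues.

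After filtering, 306 steady state and 4198 AngII barcodes remained, with a median of 9105 and 1092 UMIs. Under 2000 UMIs lay 3.27% and 68.3% of them, and no barcode sequence was shared between the libraries. *Ptprc*, which encodes CD45, was detected in 93.8% and 63.6% of barcodes. A barcode entered a class when that class had at least 2 marker UMIs and at least 2/3 of all marker UMIs, which placed 271 barcodes (88.6%) and 2790 barcodes (66.5%). Of the 1408 ungated AngII barcodes, 1209 mixed markers of several classes and 199 had too few. Near the gate lay 419 of 2098 AngII macrophages, 60 of 201 T cells, 62 of 132 monocytes and 42 of 66 type 1 conventional dendritic cells (cDC1). In classes of at least 10 barcodes the leading genes fitted the class name, except in AngII monocytes. There immunoglobulin genes led, with 33412 of their UMIs in a single barcode of 54597 UMIs, and 7 barcodes carried the plasmacytoid gene *Siglech*.

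By role, 43 members were large subunit genes, 31 small subunit genes, 3 the acidic P stalk genes that recruit elongation factors, and 8 paralogs. *Rps19bp1* matched by name although its product is an RPS19-binding nucleolar protein, and the paralog *Rpl7l1* likewise encodes an assembly factor. The large subunit supplied 48.2% and 47.4% of member UMIs at steady state and on AngII, the small subunit 45.9% and 46.3%, and the P stalk 5.16% and 5.34%. *Fau*, which encodes a ribosomal protein fused to a ubiquitin-like domain, and *Rack1* do not carry matching names and are counted with the translation factors. The 297 pseudogene names left out held 0.0594% and 0.0584% of UMIs.

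To show how paralogs differ from their parent genes at the transcription start, where the TOP tract begins, the promoter letters of *Rps27*, *Rpl22* and their paralogs are given from RefSeq (GRCm38.p6), from 50 bases before the start to 25 bases from it. Capitals mark runs of at least 6 pyrimidines on the gene's strand within 25 bases of the start.
Rps27 (chr3:90213624-90213698, minus strand): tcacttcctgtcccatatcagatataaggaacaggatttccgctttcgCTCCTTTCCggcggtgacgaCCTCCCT
Rps27l (chr9:66946036-66946110, plus strand): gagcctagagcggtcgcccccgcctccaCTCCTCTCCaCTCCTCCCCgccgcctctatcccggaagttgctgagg
Rpl22 (chr4:152325676-152325750, plus strand): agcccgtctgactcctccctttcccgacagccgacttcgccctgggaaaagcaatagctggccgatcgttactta
Rpl22l1 (chr3:28805458-28805532, plus strand): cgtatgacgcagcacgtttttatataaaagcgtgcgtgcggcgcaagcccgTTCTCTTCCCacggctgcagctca
The longest run had 9 letters in *Rps27* and in *Rps27l* and 10 in *Rpl22l1*, while *Rpl22* had none of at least 6 letters within 25 bases of the start. In *Rps27* this run spanned the start and in *Rpl22l1* it lay just after it. Both runs of *Rps27l* ended before the start, so they lie outside the annotated transcript. The runs therefore do not show which of these genes carries a TOP tract. Runs farther upstream, as in *Rpl22*, are not in capitals. Of all 27025 promoters, 43.9% hold such a run on the gene's strand. An entry was found for 64 of the 86 members (74.4%), which is under the 80% needed, so the share over the members is void as a comparison. These letters describe the annotated start and not the start used in these cells. For *Rpl22l1* the gene position given below, from another annotation, begins upstream of the letters shown.

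Ribosomal protein transcripts took up 16.9% of all UMIs at steady state and 15.2% on AngII. *Rps29*, a small subunit protein gene on chromosome 12, led in both libraries with 7049 CPM (UMI counts scaled to the same total in each group) at steady state and 4508 CPM on AngII. *Rps24* was second with 4606 and 3776 CPM. Among the 10 highest of the AngII library were also *Rpl41* (3767 CPM), *Rplp1* (3582 CPM), *Rps9* (3448 CPM), *Rpl23* (3252 CPM), *Rps27a* (3110 CPM), *Rpl37a* (2924 CPM) and *Rps16* (2892 CPM). Since a 3′ library counts a transcript once whatever its length, these levels compare molecules without a length correction. Among the 10 highest at steady state were also *Rplp1* (4191 CPM), *Rps27* (4028 CPM), *Rpl41* (3725 CPM), *Rpl37a* (3643 CPM), *Rpl23* (3521 CPM), *Rpl39* (3305 CPM) and *Rps21* (3273 CPM). Both orders mix proteins of the 2 subunits. At the other end, the paralogs ranged from 6.05 CPM for *Rpl6l* to 435 CPM for *Rps27l* on AngII.

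T and B cells devoted the largest part of their transcripts to ribosomal proteins among the classes with at least 10 barcodes. In T cells the 86 members held 36.4% of UMIs (interval 36.2 to 36.5, 34 barcodes) at steady state and 29.4% (29.3 to 29.5, 201 barcodes) on AngII. In B cells they held 25.7% (25.5 to 25.9, 50 barcodes) and 29.7% (29.6 to 29.9, 81 barcodes). Macrophages stood at 11.4% (11.3 to 11.4, 140 barcodes) and 12.3% (12.3 to 12.3, 2098 barcodes). The share in T cells was thus 3.20 times that of macrophages at steady state (3.17 to 3.22) and 2.39 times on AngII (2.38 to 2.40), and in B cells it was 2.26 times (2.24 to 2.28) and 2.41 times (2.40 to 2.43). Single barcodes ranged from 16.9% to 47.3% in steady state T cells with a median of 37.6%, and from 0.507% to 46.2% in steady state macrophages with a median of 10.1%. The ranges therefore overlapped, but all 34 steady state T cells lay above the upper quartile of macrophages (13.1%). Over 25% lay 29 of these 34 T cells and 3 of the 140 macrophages. The SD over T-cell barcodes was 8.53 percentage points at steady state, against 0.566 from counting alone.

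**Figure D1:**
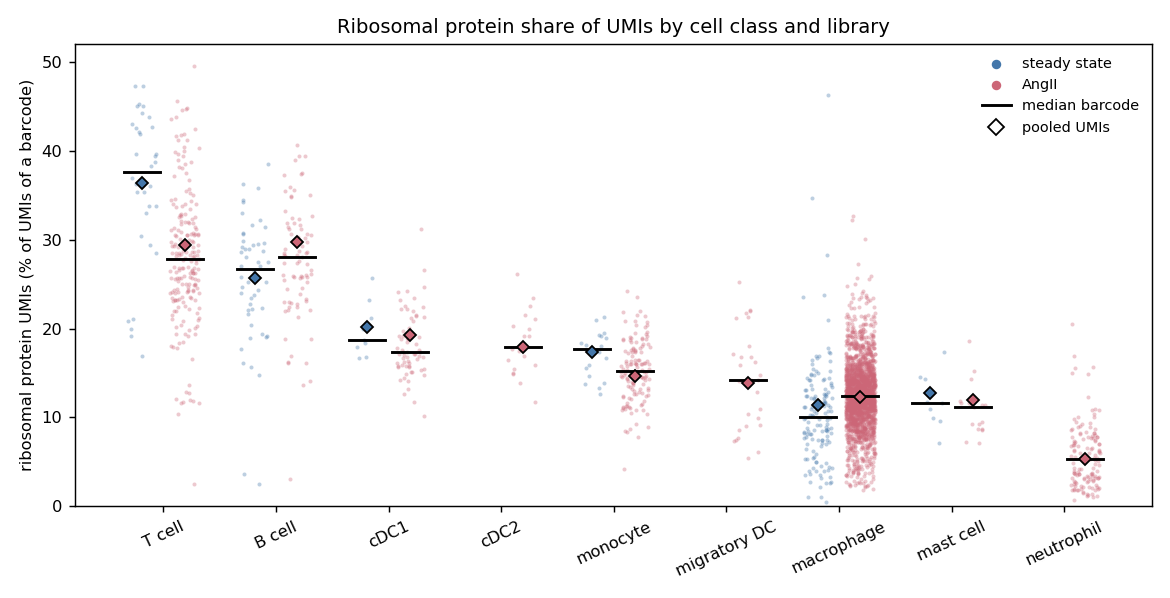
Each point is 1 barcode, placed by its class and library (blue steady state, red AngII), and the vertical axis gives the percent of its UMIs that fall on the 86 members; the black line is the median barcode and the diamond the pooled share. Classes with fewer than 9 barcodes in a library are left out. T and B cells lie highest, at pooled shares of 25.7% to 36.4%, and AngII neutrophils lowest, at 5.35%.

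Among the other classes cDC1 reached 19.2% on AngII (19.1 to 19.3, 66 barcodes), which was 1.56 times the macrophage share (1.55 to 1.57). Type 2 dendritic cells held 17.96% (20 barcodes), monocytes 14.7% (132 barcodes), migratory dendritic cells 13.9% (28 barcodes) and mast cells 12.0% (18 barcodes). Mast cells did not differ from macrophages beyond counting error, at 0.974 times (0.940 to 1.01) on AngII, but at steady state 9 mast cells were at 1.12 times (1.10 to 1.15). Neighbours in this order lay closer together than the spread of their barcodes: the SD was 3.47 points in monocytes, 5.62 in migratory dendritic cells and 3.73 in macrophages. The few other lymphoid barcodes on AngII were at 17.99% (8 NK cells) and 15.6% (3 ILC2), below cDC1. All 3 AngII ILC2 lay near the gate, with a median of 2 own marker UMIs. No ILC2 marker was among their 10 leading genes, so their class is uncertain. At steady state the order was the reverse. There ILC2 were at 28.35% (2 barcodes), and they and the 1 NK cell lay above cDC1 at 20.16% (9 barcodes). Without the immunoglobulin-rich and the *Siglech* barcodes, AngII monocytes were at 15.2% (124 barcodes). All AngII monocytes were at 1.20 times the macrophage share (1.19 to 1.20). Steady state monocytes held 17.4% (18 barcodes), 1.53 times the macrophage share (1.51 to 1.55).

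Neutrophils had the lowest share, 5.35% on AngII (5.28 to 5.42, 134 barcodes), or 0.435 times that of macrophages (0.429 to 0.441). Their barcodes ranged from 0.765% to 20.6%, and 65 of 134 fell under 5%. At steady state only 3 neutrophils were found, at 3.81%. As neutrophils carried more UMIs than macrophages (median of 3057 against 1105), the lower share did not go with lower depth.

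Depth varied widely between barcodes, so the shares were read again at matched depth. From 500 to 1000 UMIs, AngII T cells were at 27.5%, macrophages at 12.8% and neutrophils at 7.68%. From 5000 to 10000 UMIs they were at 31.2%, 9.82% and 5.33%. T cells lay above macrophages, and macrophages above neutrophils, in each depth range of the AngII library that held the class. T and B cells had no fixed order across these ranges: from 2000 to 5000 UMIs, T cells were at 21.6% (16 barcodes) and B cells at 27.0% (20 barcodes). Free RNA in droplets adds ribosomal protein UMIs to every barcode, and as no class lacks these genes its part in the shares was not tested.

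**Figure D2:**
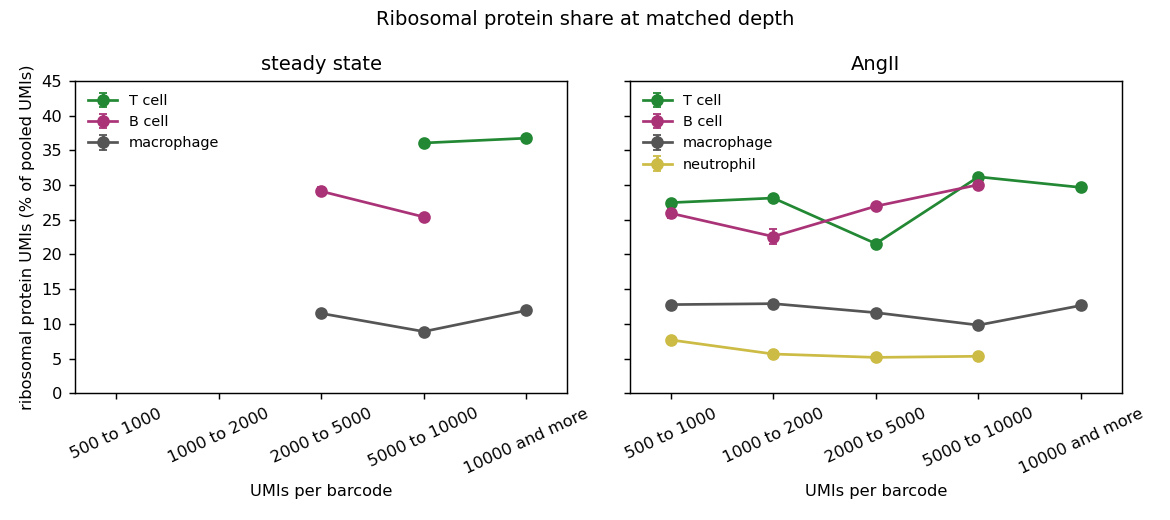
Pooled share of UMIs on the 86 members (vertical axis, percent) by UMIs per barcode (horizontal axis, depth ranges) for 4 classes at steady state (left) and on AngII (right). Points are depth ranges with at least 5 barcodes and bars are exact 95% intervals, mostly smaller than the points. The AngII macrophages stay between 9.82% and 12.9% and the AngII T cells between 21.6% and 31.2%.

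The lymphocyte excess was spread over nearly all members. Between steady state T cells and macrophages, 80 of the 82 members with at least 100 UMIs in both groups together were at least 1.5-fold higher in T cells, against 16.8% of 3399 genes, with a median ratio of 3.16 beside 0.768 over all genes. On AngII it was 77 of 84, against 28.6% of 8111 genes, with a median ratio of 2.45 beside 1.01. For B cells the counts were 74 of 82 at steady state (21.4% of all genes) and 78 of 84 on AngII (19.1%), with median ratios of 2.13 and 2.29. In the other direction 1 member, *Rps27l*, was lower in T cells at steady state (43.9% of all genes) and none on AngII (33%). In B cells *Rps27l* was lower at steady state (38.3%), and *Rps27l* and *Rps19bp1* on AngII (40.9%). In AngII cDC1 it was 56 of 85 members (12.6% of all genes) and none was lower (36.2%). In AngII monocytes only 4 of 85 were higher by this measure (8.35% of all genes): *Rps4l*, *Rplp0*, *Rpl36al* and *Rpl10*, while none was lower (21.6%).

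The widest lymphocyte differences were in single genes of both subunits. *Rpl12* (chromosome 2, 32961559 to 32965345, plus strand), a protein at the base of the P stalk, had 6286 CPM in steady state T cells and 991 CPM in macrophages, a ratio of 6.34 (5.94 to 6.77). On AngII it had 5620 CPM in T cells and 1041 CPM in macrophages, a ratio of 5.399 (5.22 to 5.58). In B cells *Rpl12* stood at 3557 CPM at steady state and 4223 CPM on AngII. *Rps27* (chromosome 3, 90212522 to 90213651, minus strand), a zinc-binding small subunit protein, had 11339.8 CPM in steady state T cells, 9240 CPM in B cells and 2026 CPM in macrophages. The ratio to macrophages was 5.60 (5.34 to 5.87) for T cells and 4.56 (4.34 to 4.79) for B cells. On AngII *Rps27* was at 3924, 7109 and 1645 CPM in T cells, B cells and macrophages. Both genes were thus above the macrophage level in both lymphocyte classes and both libraries.

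To separate the makeup of the ribosomal protein transcripts from their total, each member was also expressed as a share of all member UMIs of its class. Across the 86 members the Spearman correlation of these shares was 0.965 between steady state T and B cells and 0.861 between steady state T cells and macrophages. It was 0.977 between AngII macrophages and monocytes and 0.999 between all and resident AngII macrophages, which overlap. It was lower with AngII neutrophils, at 0.767 for T cells and 0.803 for B cells of the same library, and the lowest of all pairs, AngII T cells and steady state mast cells, was at 0.710. Members are not independent and share their libraries, so these are descriptions. Between T cells and macrophages the ratio of shares was at least 1.5-fold higher for 3 and lower for 9 of 82 members at steady state, and higher for 2 and lower for 8 of 84 on AngII. Members raised within the makeup of T cells over macrophages at steady state were *Rpl12* (ratio of shares 1.98), *Rps27* (1.75), *Rps15a* (1.51), *Rps16* (1.45) and *Rps24* (1.43). Lowest were *Rps27l* (0.07), *Rpl7l1* (0.28), *Rpl10* (0.47) and *Rpl7a* (0.51).

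On AngII the same comparison put *Rpl12* (2.26), *Rpl22l1* (1.70), *Rpl13a* (1.42), *Rpsa* (1.41), which also encodes a laminin receptor, and *Rpl35* (1.41) at the top. *Rps27l* (0.44), *Rps19bp1* (0.45), *Rpl7l1* (0.48), *Rpl36al* (0.52) and *Rpl10* (0.58) were lowest. In B cells against macrophages, *Rps27* (2.02 at steady state, 1.79 on AngII), *Rpl12* (1.59, 1.68), *Rps20* (1.52, 1.47) and the retrogene copy *Rps27rt* (1.49, 1.54) were among the 5 highest ratios of shares in both libraries. The lowest in both libraries included *Rps27l* (0.14, 0.11), *Rpl7l1* (0.35, 0.30), *Rpl36al* (0.60, 0.45) and *Rpl7a* (0.57, 0.61). The 2 lymphocyte comparisons within a library share the same macrophages, so their likeness is not independent.

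**Figure D3:**
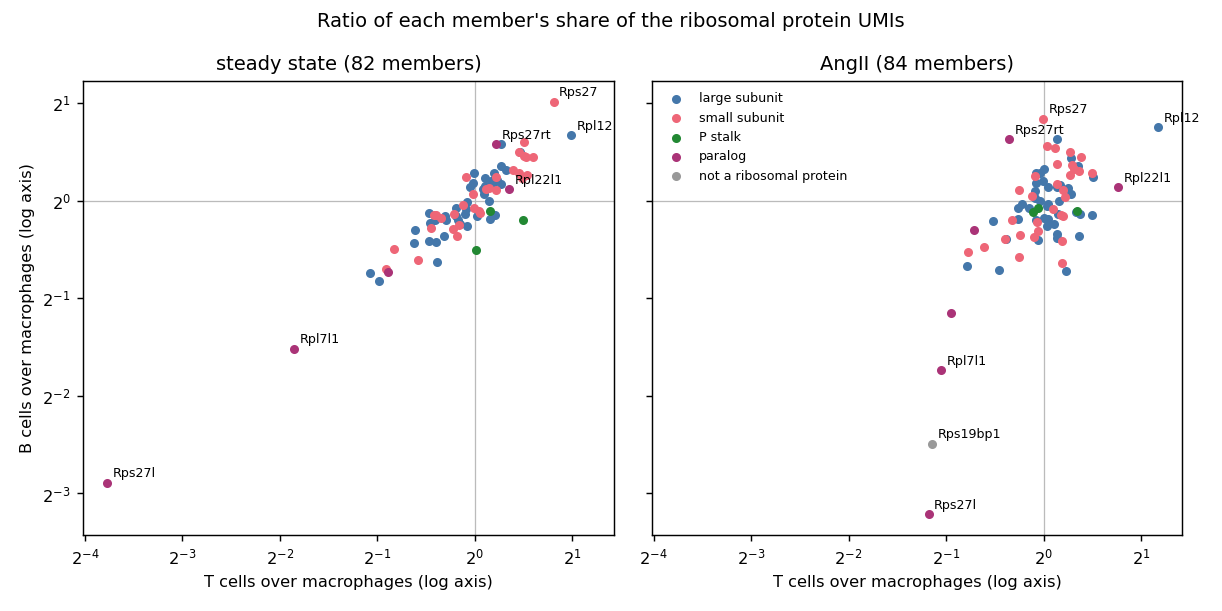
Each point is 1 member with at least 100 UMIs in both comparisons (82 at steady state, 84 on AngII). The axes give the ratio of its share of all member UMIs in T cells (horizontal) and B cells (vertical) over the macrophages of the same library, on log axes; colours mark the role, with *Rpl7l1* among the paralogs. *Rps27l* lies far below 1 in both directions, and *Rpl12* above 1.

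The widest ratios between T and B cells at steady state were in 2 genes of the P stalk. *Rplp0* had 4752 CPM in T cells and 2073 CPM in B cells, a ratio of 2.29 (2.08 to 2.53), *Rplp1* 10037 and 4941 CPM, a ratio of 2.03. *Rpl36a* (1.81), *Rpl5* (1.79), *Rpl12* (1.77) and *Rps16* (1.72) came next, before *Rplp2* with 6521 and 3855 CPM, a ratio of 1.69, and the median member was at 1.39. Of 80 members, 22 were at least 1.5-fold higher in T cells (18.5% of 698 genes) and none was lower (21.1% of those genes). On AngII *Rplp0* was at 1.36 (1.27 to 1.44), *Rplp1* at 1.01 and *Rplp2* at 0.998. There *Rps27l* (4.07) and *Rpl7a* (1.92) led, while *Rps27* was at 0.55 and *Rps27rt* at 0.50. Here 8 of 82 members were higher (41.2% of 2217 genes) and 2 lower (16%).

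In neutrophils 77 of 84 members were at least 1.5-fold lower than in macrophages (38.9% of 7714 genes) and 1, *Rps19bp1*, was higher (21.9%), with 25 UMIs in neutrophils and a ratio of 1.56 (0.998 to 2.35). The lower level was uneven. *Rpl3*, a core protein near the peptidyl transferase centre, had 141 CPM in neutrophils and 1032 CPM in macrophages, a ratio of 0.137 (0.10 to 0.18). *Rps4x*, an X-linked small subunit gene, had 290 CPM and 1907 CPM, a ratio of 0.15 (0.13 to 0.18). *Rps27* was nearly as high as in macrophages, with 1399 and 1645 CPM and a ratio of 0.85 (0.78 to 0.92). *Rpl22l1*, *Rpl10a* and *Rpl36a* followed *Rpl3* and *Rps4x* among the lowest, with ratios of 0.20, 0.24 and 0.25. Fewer molecules of these genes and more of other genes cannot be told apart in such a share.

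The use of paralogs differed between cell classes. *Rps27l* (chromosome 9, 66946086 to 66949516, plus strand), a close paralog of *Rps27* and a known target of p53, had 283.9 CPM in steady state macrophages, 66.5 CPM in T cells and 86.7 CPM in B cells. Set against *Rps27*, it made up 12.3% of both genes' UMIs in macrophages (11.3 to 13.3), 5.99% in monocytes (4.64 to 7.60), 0.583% in T cells (0.352 to 0.909) and 0.929% in B cells (0.602 to 1.37). On AngII its part was 21.1% in macrophages (20.5 to 21.7), 15.2% in monocytes, 18.3% in neutrophils, 15.6% in cDC1, 10.6% in T cells (9.72 to 11.5) and 1.58% in B cells (1.14 to 2.14). Migratory dendritic cells, a mature state marked by *Ccr7* and *Fscn1*, had the highest part, 39.2% (36.3 to 42.3), with 1292 CPM of *Rps27l* over 28 barcodes. B cells stayed lowest in the AngII library, also among barcodes of at least 2000 UMIs (1.49%, against 21.4% in macrophages and 9.94% in T cells). The T-cell part varied with depth. From 500 to 2000 UMIs it was 17.4% (13.8 to 21.4, 122 barcodes), beside 19.6% in macrophages and 3.70% in B cells (1.02 to 9.21, 29 barcodes).

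*Rpl22l1* (chromosome 3, 28805436 to 28807424, plus strand) is the paralog of *Rpl22*, a large subunit protein needed for normal T-cell development that holds its paralog down. It had 1072 CPM in steady state T cells, 641 CPM in B cells and 262 CPM in macrophages. On AngII it had 1040.02 CPM in T cells, 679.7 CPM in B cells, 256 CPM in macrophages, 261 CPM in cDC1 and 51.2 CPM in neutrophils. Its part in the pair was 30.3% and 30.1% in T cells of the 2 libraries, the highest of the classes shown, against 21.6% and 18.7% in macrophages, 12.2% in AngII cDC1 and 7.02% (4.4 to 10.5) in AngII neutrophils. T cells were thus above macrophages in both libraries, with intervals that did not overlap.

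*Rpl36al*, an autosomal copy of the X-linked *Rpl36a*, went the other way. It made up 51.7% of the pair in AngII neutrophils (43.4 to 59.9), 46.0% in monocytes and 34.2% in macrophages, but 18.4% in T cells and 17.5% in B cells. At steady state it was again lower in lymphocytes than in macrophages and monocytes, with 40.1% in monocytes, 28.9% in macrophages, 21.3% in B cells and 16.0% in T cells. The remaining paralogs were scarce. *Rps27rt* had 92.6 CPM in the whole AngII library, *Rpl7l1* 74.0 CPM, *Rpl37rt* 39.1 CPM, *Rps4l* 10.9 CPM and *Rpl6l* 6.05 CPM. *Rps27rt*, *Rpl37rt* and *Rps4l* are near-identical copies of their parents, so reads of the parent may be assigned to them and their levels are uncertain.

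**Figure D4:**
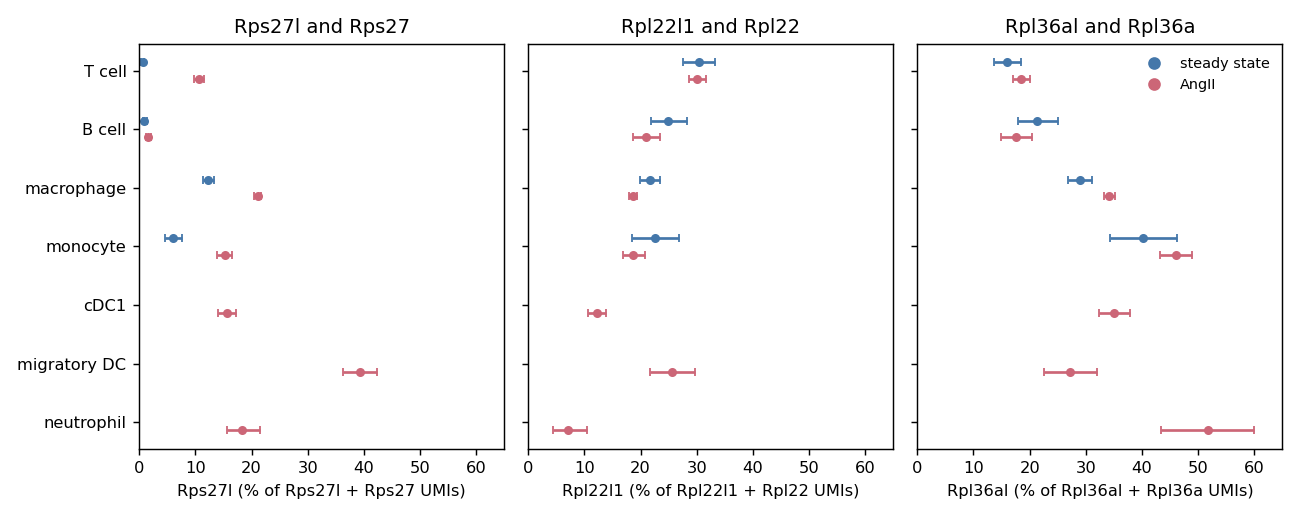
Percent of a pair's UMIs that came from the paralog (horizontal axis) by class (vertical axis) for *Rps27l*, *Rpl22l1* and *Rpl36al*, each against its parent gene, in classes with at least 10 barcodes. Blue is steady state, red AngII, and bars are exact 95% intervals. *Rps27l* runs from 0.583% in steady state T cells to 39.2% in AngII migratory dendritic cells.

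Macrophages of the 2 libraries lay close together in pooled UMIs. On AngII their share was 1.08 times the steady state value (1.08 to 1.09), at 1.01 times from 2000 to 5000 UMIs, 1.10 times from 5000 to 10000 UMIs and 1.06 times from 10000 UMIs. In resident macrophages (marked by genes such as *Lyve1* and *Cd163*) the share was 11.3% at steady state (135 barcodes) and 11.4% on AngII (739 barcodes), a ratio of 1.01 (1.01 to 1.02). By depth this ratio was 0.931 (0.905 to 0.959) from 2000 to 5000 UMIs, 1.04 from 5000 to 10000 UMIs and 1.001 (0.996 to 1.007) from 10000 UMIs. The range of 2000 to 5000 UMIs held 139 AngII and 12 steady state barcodes, whose medians ran the other way, at 11.8% and 8.03%. Over all depths the barcode medians lay farther apart than the pooled shares. On AngII and at steady state they were 11.4% and 10.0% in resident macrophages, and 12.4% and 10.1% in all macrophages. Reparative macrophages marked by *Arg1*, *Spp1* and *Inhba*, which were found on AngII, held 13.2% (190 barcodes), 1.16 times the resident share. Of their 84 members none passed 1.5-fold in either direction against resident macrophages (4.83% of 6623 genes were higher and 10.9% lower). Cycling macrophages had a higher share than other macrophages of at least 5000 UMIs, 14.6% against 11.0% at steady state (5 and 118 barcodes) and 14.7% against 12.1% on AngII (23 and 380 barcodes). Their depth moved with this, at a median of 40743 against 11103 UMIs at steady state and 21315 against 13645 UMIs on AngII, and its part was not tested. Resident macrophages with and without an eYFP UMI held 11.1% and 12.2% at steady state and 11.4% and 11.4% on AngII. The steady state order turned over barcode medians (10.1% with and 9.50% without), and barcodes with an eYFP UMI were deeper, at a median of 11212 against 7076 UMIs at steady state and 8552 against 1723 UMIs on AngII.

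Some macrophages carried very few ribosomal protein transcripts. Under 5% lay 23 of 140 macrophages at steady state (16.4%) and 65 of 2098 on AngII (3.098%), chosen by this share. At steady state these barcodes had a median mitochondrial share of 3.95% against 1.75% in the others, 6232 against 11790.0 UMIs, and 51559 against 26587 CPM of the nuclear RNA *Malat1*. On AngII they had 1.86% against 1.36% mitochondrial UMIs and 31465 against 18320 CPM of *Malat1*. Depth went the other way there, at a median of 4620 UMIs in the low-share barcodes against 1087 in the others. At steady state *Lyve1* was at 2112 against 884 CPM and *Cd163* at 2246 against 759 CPM. The neutrophil genes *S100a8* and *S100a9* were at 1545 against 1.16 CPM and 2331 against 0.582 CPM, with 546 of their 547 UMIs in a single low-share barcode. The part of these differences in the low shares was not tested.

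Among single members, 5 of 85 were at least 1.5-fold higher in AngII than in steady state macrophages (13.7% of 8157 genes) and 3 were lower (13.3%), both smaller shares of the members than of all genes. The higher ones were *Rpl37rt* (2.19, with 29 UMIs at steady state), *Rps9* (1813 CPM at steady state and 3003 CPM on AngII, a ratio of 1.66), *Rps26* (1.61), *Rps27l* (1.55) and *Rplp0* (1.53). The lower ones were *Rps4l* (0.44), *Rps28* (1762 and 1003 CPM, a ratio of 0.57) and *Rpl27a* (1011 and 657 CPM, a ratio of 0.65). In T cells 2 of 82 members were higher on AngII (39.8% of 2058 genes) and 13 lower (13.9%). In B cells 2 of 80 were higher (6.01% of 849 genes) and 1 lower (8.13%).

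Several of these shifts appeared in unrelated classes at once. As ratios of shares, AngII over steady state, *Rps28* was at 0.53 in macrophages, 0.50 in T cells and 0.49 in B cells, and *Rpl27a* at 0.60, 0.59 and 0.62. *Rps29* was at 0.65, 0.57 and 0.69, and *Rpl38* at 0.73, 0.57 and 0.59. *Rplp0* was at 1.41, 1.27 and 1.51 and *Rps9* at 1.53, 1.32 and 1.23, so these genes shared a direction in all 3 classes. *Rps26* (1.48, 1.53, 1.01) and *Rpl35* (0.72, 1.09, 0.67) did not share one size or direction. Members with shorter annotated transcripts tended to have lower ratios. Over 72 subunit members the Spearman correlation of annotated length and the ratio of shares was 0.30 in macrophages. It was 0.27 in T cells and 0.15 in B cells, which is weak. Length was that of the longest principal transcript annotated for a gene, such as 5179 bases for *Rps15a*. It was not measured on the molecules counted. The comparisons use different cells of the same 2 libraries, so a property of the library and a property of AngII cannot be told apart.

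**Figure D5:**
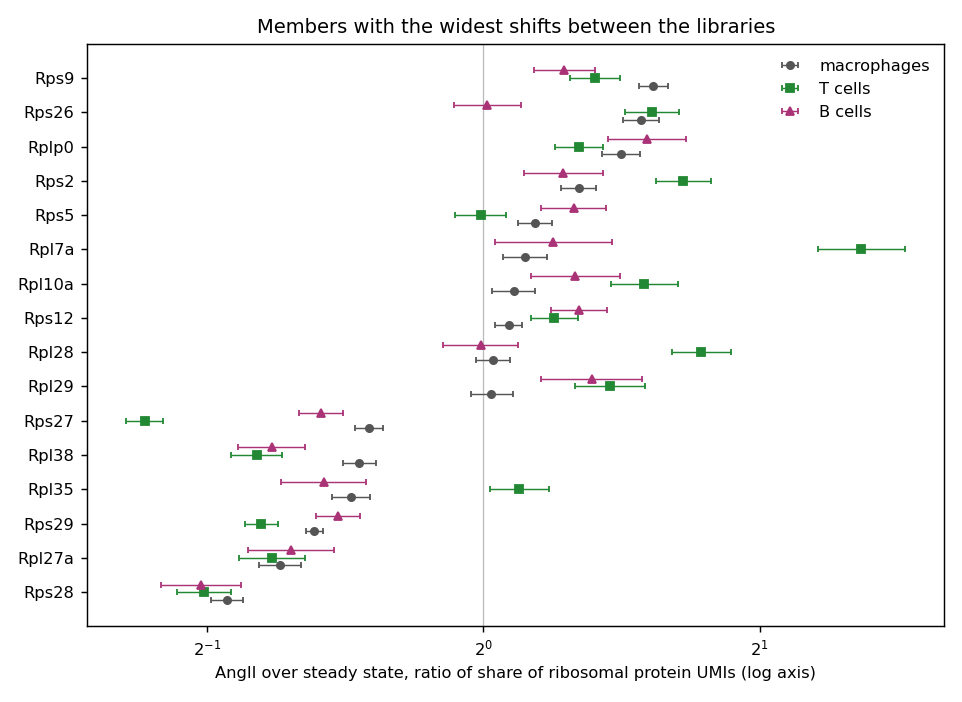
Ratio of each member's share of member UMIs on AngII over steady state (horizontal log axis) in macrophages, T cells and B cells, for 16 of the members with the highest or lowest ratios in any of the 3 classes; bars are exact 95% intervals. *Rps28* and *Rpl27a* lie at 0.49 to 0.62 in all 3 classes, while *Rpl7a* lies at 2.58 in T cells beside 1.11 in macrophages and 1.19 in B cells.

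T cells had a lower share on AngII, 0.809 times the steady state value (0.803 to 0.815), and 0.865 times from 5000 to 10000 UMIs and 0.807 times from 10000 UMIs. The T-cell class differed in kind between the libraries. Of 201 AngII T-cell barcodes, 60 held a UMI of *Rag1*, *Rag2*, *Dntt* or *Ptcra*, genes of developing lymphocytes, with 303 UMIs of *Dntt*, against 1 of 34 at steady state. At least 5 UMIs of cycling genes marked 20 AngII T cells and 0 of 34 at steady state. These splits were chosen after the values were seen. Barcodes with and without the developing genes held 29.6% and 29.1%, and those with and without cycling genes 28.7% and 30.1%, all below the steady state share of 36.4%.

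Some members differed between these T-cell subsets and others did not. *Rps27l* was at 66.5 CPM at steady state (19 UMIs) and 465 CPM on AngII (495 UMIs), a ratio of 6.98 (4.42 to 11.7). It was at 646 CPM in the cycling AngII T cells and 309.9 CPM in the others, and at 590 CPM with and 272 CPM without developing genes. *Rpl7a*, a large subunit protein gene whose introns carry small nucleolar RNAs, was at 1303 CPM at steady state and 2720.2 CPM on AngII, with 3390 CPM in barcodes with developing genes and 1688 CPM in those without. *Rps27* was at 11339.8 CPM at steady state, 3051 CPM in AngII T cells with developing genes and 5268 CPM in those without. *Rps29* had 12656.5 and 5867 CPM and *Rps28* 5043 and 2027 CPM at steady state and on AngII. Without the barcodes that carry developing genes, *Rps27l*, *Rpl7a* and *Rps27* lay nearer to their steady state levels. *Rps28* did not, with 2020 CPM (1912 to 2133) in barcodes with and 2037 CPM (1902 to 2178) in those without developing genes. *Rpl22l1* lay farther away, at 859 CPM without them against 1072 CPM at steady state.

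Other genes of protein synthesis were read beside the members from lists of named genes. Of 18 translation factors and other TOP genes, 16 were at least 1.5-fold higher in steady state T cells than in macrophages (16.8% of all genes), with a median ratio of 2.19 beside 0.768 over all genes. *Tpt1*, a TOP transcript encoding translationally controlled tumour protein, had 11290.7 CPM in T cells and 4699 CPM in macrophages, and *Fau* 6763 and 3000.3 CPM. On AngII 15 of 18 were higher in T cells (28.6% of all genes) and 12 of 18 in B cells (19.1%), and in neutrophils 14 of 18 were lower (38.9%) and none higher (21.9%) than in macrophages. These genes thus moved in the direction of the ribosomal proteins in each of these comparisons.

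Ribosome biogenesis genes, which make ribosomal RNA and assemble subunits, differed more between the libraries. In T cells 9 of 10 were at least 1.5-fold higher on AngII than at steady state (39.8% of all genes), with a median ratio of 2.01 beside 1.28, and none was lower (13.9%). Summed UMIs weight deep barcodes most, and 20 cycling AngII T cells had a median of 27051 UMIs against 1045 in the other 181. Developing genes were found in 60 AngII T cells. At steady state 0 of 34 T cells were cycling and 1 held developing genes. The biogenesis genes were not read apart in these subsets. *Ncl*, encoding nucleolin, had 735 CPM at steady state and 1185 CPM on AngII, and *Nop10*, a part of the pseudouridine-forming snoRNPs, 242 and 588 CPM. Mitochondrial ribosomal proteins, which serve a separate ribosome, were higher in 4 (16.8% of all genes) and lower in 6 (43.9%) of 31 in steady state T cells against macrophages (median 0.857 beside 0.768). On AngII they were higher in 42 of 76 (28.6% of all genes, median 1.53 beside 1.01). Among AngII macrophages 22 of 76 were higher than at steady state (13.7% of all genes, median 1.35 beside 1.01). The genes of mTORC1 and MYC that regulate ribosome synthesis had median ratios near those of all genes in T cells against macrophages, 0.777 beside 0.768 at steady state and 1.03 beside 1.01 on AngII.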

How the data were processed

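The authors sequenced 10x 3′ v3.1 libraries and mapped reads with Cell Ranger 3.1.0 against a GRCm38.p6 reference (GENCODE M24) extended by eYFP. They deposited UMI counts per gene and barcode, without normalization, for 346 steady state and 4419 AngII barcodes. Kept barcodes had 300 to 6500 genes and mitochondrial UMIs of up to 5%, leaving 3647973 and 18008885 UMIs. Doublets were not called, but barcodes mixing markers stayed ungated. Classes came from fixed marker lists. UMIs were summed per class, with exact binomial intervals for shares and exact conditional ones for ratios. Genes with at least 100 UMIs in both groups together entered ratios, and 1.5-fold differences were counted. With 1 library per group no test was run. Named are the 10 highest members of each library, every paralog, and the 5 highest and lowest ratios of shares per comparison, with the 3 highest genes of each other list. Some members that this rule names are not reported here. Further names were chosen after their values were seen. Members and lists were chosen with earlier results of these data known. The calculation was tested on simulated data. Tools were pandas 2.3.3, SciPy 1.17.1, NumPy 2.4.6 and, for plots, Matplotlib 3.10.9, under Python 3.11.15, with member positions and transcript lengths from GENCODE M21.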

Additional observations from a re-analysis of the deposited data

Results flagged for a closer look

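The ribosomal protein share moved in opposite directions between the libraries in different classes: on AngII it was 1.08 times the steady state value in macrophages and 1.16 times in B cells, but 0.809 times in T cells and 0.845 times in monocytes. The difference between these classes was not tested, since each class has 1 library per condition. The monocyte class also differed in its leading genes. These included *Chil3*, *Plac8*, *Ace* and *Treml4* at steady state, and immunoglobulin genes, *Ly6c2*, *Plac8*, *Vcan* and *Siglech* on AngII. Without the immunoglobulin-rich and the *Siglech* barcodes, AngII monocytes were at 15.2% (124 barcodes), against 17.4% at steady state (18 barcodes). From 2000 to 5000 UMIs the B-cell ratio was 0.926 (20 AngII and 7 steady state barcodes). From 5000 to 10000 UMIs it was 1.18 (29 and 42 barcodes), so its direction was not the same in both ranges.

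*Dntt*, a gene of developing lymphocytes outside the ribosomal protein set, had 303 UMIs in AngII T-cell barcodes and 0 in the 34 of steady state. Outside the T-cell class it had 86 UMIs on AngII and 1 at steady state.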

How the results depend on the processing

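The 7 share ratios that follow kept their direction under every alternative listed. Within the range of 2000 to 5000 UMIs, however, the AngII over steady state ratio turned to 0.931 for resident macrophages and 0.926 for B cells. This range held only 12 resident macrophages and 7 B cells at steady state. Over barcode medians the resident macrophages did not turn, at 11.8% on AngII and 8.03% at steady state. The B cells were at 26.3% and 28.1%. The share ratios below are given in the order T cells over macrophages (steady state 3.20, AngII 2.39), B cells over macrophages (2.26, 2.41), neutrophils over macrophages (0.435), then AngII over steady state for macrophages (1.08) and T cells (0.809). A stricter gate of 4 marker UMIs gave 3.15, 2.43, 2.30, 2.48, 0.424, 1.10 and 0.851. Medians over barcodes gave 3.73, 2.25, 2.65, 2.26, 0.428, 1.23 and 0.741. Thinning each barcode to 1000 UMIs gave 3.39, 2.34, 2.45 and 2.31 for the lymphocytes, 1.15 for macrophages and 0.794 for T cells. It left out 939 macrophages, 83 T cells, 24 B cells and 25 neutrophils on AngII, and 2 macrophages and 1 B cell at steady state. Of the next alternatives, only values that moved beyond their interval are given. Without the deepest barcode of each group, T cells were at 3.30 at steady state, B cells at 2.34 on AngII, neutrophils at 0.441, and the library ratios at 1.09 and 0.790. With at least 2000 UMIs, AngII T and B cells were at 2.43 and 2.46, neutrophils at 0.428, and the library ratios at 1.07 and 0.815. With at least 1000 genes the AngII values were 2.43, 2.46 and 0.442. All deposited barcodes gave 2.37 for AngII T cells. Without mitochondrial UMIs, AngII B cells were at 2.43, and also without *Malat1* B cells were at 2.30 and 2.46 and the library ratios at 1.07 and 0.796.

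Chosen after seeing the data, leaving out T cells with developing genes gave 2.37 and 0.781, leaving out cycling T cells 2.44 and 0.826, and resident macrophages alone 1.01. The count of members lower in AngII macrophages was 1 in place of 3 after thinning and 1 at a fold of 2. The count of higher members was 1 in place of 5 at a fold of 2 and 11 with pseudogene names included. The cause was not tested. No paired analysis was possible because each condition has 1 library. Depth limits the AngII library most, where 68.3% of barcodes held under 2000 UMIs.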

Other observations

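In cDC1, which cross-present antigen, *Rpsa* led the members over AngII macrophages, with 4344 CPM against 1698 CPM and a ratio of 2.56 (2.46 to 2.66). *Rpl14* was at 2.02. *Rpl22l1* had nearly equal levels in both classes, 261 and 256 CPM, a ratio of 1.02 (0.878 to 1.18), and *Rps27l* was at 0.98 (0.875 to 1.10). The median member was at 1.56, and the other paralogs ranged from 1.06 (*Rps27rt*) over 1.47 (*Rpl36al*) and 1.61 (*Rpl37rt*) to 2.40 (*Rps4l*, 18 UMIs).

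In B cells, *Rplp0* (2073 CPM at steady state and 3610 CPM on AngII) and *Rpl29* (1314 and 1992 CPM) were at least 1.5-fold higher on AngII, and *Rps28* (3342 and 1903 CPM) was lower. In resident macrophages, 4 of 84 members were at least 1.5-fold higher on AngII (12.2% of 6926 genes) and 2 lower (11.3%). *Rps9* was at 1815 CPM at steady state and 2847 CPM on AngII, and *Rps28* at 1746 and 954 CPM.

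The X-linked members *Rpl10*, *Rpl39*, *Rps4x* and *Rpl36a* were all at least 1.5-fold lower in AngII neutrophils than in macrophages, as were 77 of all 84 members and 38.9% of all genes. The median ratio of the X-linked members was 0.280, beside 0.442 over the 84 members and 0.857 over all genes. Of the mitochondrial ribosomal proteins 3 of 76 were higher (21.9% of all genes) and 27 lower (38.9%), with a median ratio of 0.814. Ribosome biogenesis genes had 1 of 17 higher and 10 lower, with a median of 0.606.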
